A study of Mus musculus with 8 samples.

Results

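Nuclear receptors switch genes on or off through partner proteins that bind them and modify chromatin. NCoR, encoded by Ncor1, is the scaffold that brings the histone deacetylase HDAC3 to receptors without ligand and represses their targets. Coactivators work the other way: p300, encoded by Ep300, acetylates histones, and the NCOA6 protein is a scaffold for a histone methyltransferase complex called ASCOM. In fat, these proteins are best known for setting the output of PPARγ, the receptor that drives adipocyte differentiation.

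The transcripts described here are the 5 rows with the symbols Ncor1, Ep300, Ncoa5, Ncoa6 and Ncoa7 among the 50952 gene rows of the table. They were chosen by symbol with earlier results of the same diet comparison known. Their differences between diets are therefore given as a description, with standard errors and no test. The 95% confidence intervals printed for some of them take no account of that choice and are not read as tests. All mice were wild-type C57BL/6J, and the tissue was subcutaneous white fat, a mixture of adipocytes with vascular, immune and connective tissue cells. One group was fed ad libitum (AL) and the other was calorie restricted (CR) from the age of 3 months for 6 months, and fat was taken from both at 9 months. There are 8 labelled mice, 4 on each diet, and 7 libraries in the table used here, AL2, AL3 and AL4 against CR1, CR2, CR3 and CR4. They are described as biological replicates, p-values measure only the spread between these libraries, and the numbers in the library names do not match the mouse numbers of the labels.

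Values are TPM, which scale reads by gene length and library total, so that levels of different genes can be set side by side. The rows used here carried deposited false discovery rates (FDR) of at least 0.05002 and held 49.03% to 53.1% of the TPM of an AL library and 42.9% to 45.01% of a CR library. Shares and ranks over the tested genes are therefore shares of such rows, not of all expressed genes. Limma adjusted p-values were likewise computed over such rows alone. A gene that did not pass adjusted p under 0.05 is therefore not shown to be unchanged. The other coactivator genes of the family, Ncoa1, Ncoa2, Ncoa3 and Ncoa4, were not analysed here. On the deposited scale the median change of the 9883 tested genes was -0.20 in log2(TPM + 1). Relative changes, from values rescaled by median ratios between libraries, are therefore printed beside the deposited ones. Markers of adipocytes summed to 65540 to 80110 TPM in AL and 50530 to 57920 TPM in CR, with 6 of 8 having a row. Most of that sum was Cfd, at 51720 to 62270 TPM in AL and 37500 to 42840 TPM in CR. The relative change was above 0 for 2 of the 6, Cidec (0.22 ± 0.12) and Pparg (0.19 ± 0.16), and below 0 for 4. Endothelial markers, with 7 of 10 having a row, summed to 458 to 568 TPM in AL and 376 to 464 TPM in CR, and 3 of them, Pecam1, Tek and Egfl7, fell as deposited (limma, adjusted p under 0.05), against 17.6% of all tested genes. After scaling none of these 3 was called, with limma adjusted p of 0.150, 0.122 and 0.218. Kdr (0.20 ± 0.11), Eng (0.07 ± 0.15) and Emcn (0.06 ± 0.11) had relative changes above 0, and the other 4 endothelial markers lay below 0. Lymphocyte markers, with 9 of 10 having a row, summed to 5.30 to 16.4 TPM in AL and 4.09 to 10.98 TPM in CR, and none of the markers with a row in these 3 lists was at 0 in every library. Epithelial markers summed to 6.18 to 7.85 TPM in AL and 1.75 to 15.4 TPM in CR, and the muscle gene Myh1, 1 of 8 muscle markers, stood at 1.59 to 64.2 TPM in AL and 0.325 to 9.80 TPM in CR. Macrophage and fibroblast markers were not analysed here. In whole tissue, fewer cells of a type and less RNA per cell cannot be told apart, and the part of cell mixture in the differences below was not tested.

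Ncor1, the corepressor scaffold, was the most abundant of the 5 transcripts and the one with the largest difference between the diets. Its gene spans chr11:62316426-62458541 on the minus strand of GRCm38 in GENCODE M21. It stood at 85.6 TPM in AL2, 99.3 TPM in AL3 and 76.6 TPM in AL4. In CR it stood at 51.4, 55.3, 62.3 and 54.9 TPM in CR1 to CR4. Each CR library was below each AL library. The mean was 87.2 ± 11.5 TPM across AL libraries (SD, n = 3) against 56.0 ± 4.57 TPM under restriction (SD, n = 4), a ratio of 0.642. The difference in log2(TPM + 1) was -0.63 ± 0.10 (SE) as deposited and -0.41 ± 0.08 after scaling, with 95% confidence intervals of -0.86 to -0.40 and -0.60 to -0.23. The groups stayed apart after scaling, at 71.8 to 85.5 scaled TPM in AL and 55.6 to 65.1 in CR. Of the tested genes, 6.72% had a larger fall as deposited and 8.37% after scaling. In the authors' deposited table the FDR of Ncor1 was 0.0529.

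Ep300 encodes the acetyltransferase p300, a coactivator for many receptors and other transcription factors. Its gene spans chr15:81585351-81652077 on the plus strand. It stood at 24.4, 24.3 and 20.4 TPM in AL2, AL3 and AL4, and at 16.2, 14.4, 16.5 and 16.9 TPM in CR1 to CR4. The diets did not overlap, and the highest CR library was CR4. The means were 23.1 ± 2.32 TPM across AL libraries (SD, n = 3) against 16.0 ± 1.10 TPM under restriction (SD, n = 4), a ratio of 0.693. The difference was -0.50 ± 0.10 (SE) as deposited and -0.29 ± 0.09 after scaling, where the groups again did not overlap. The deposited FDR of Ep300 in the authors' deposited table was 0.150.

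**Figure D1:**
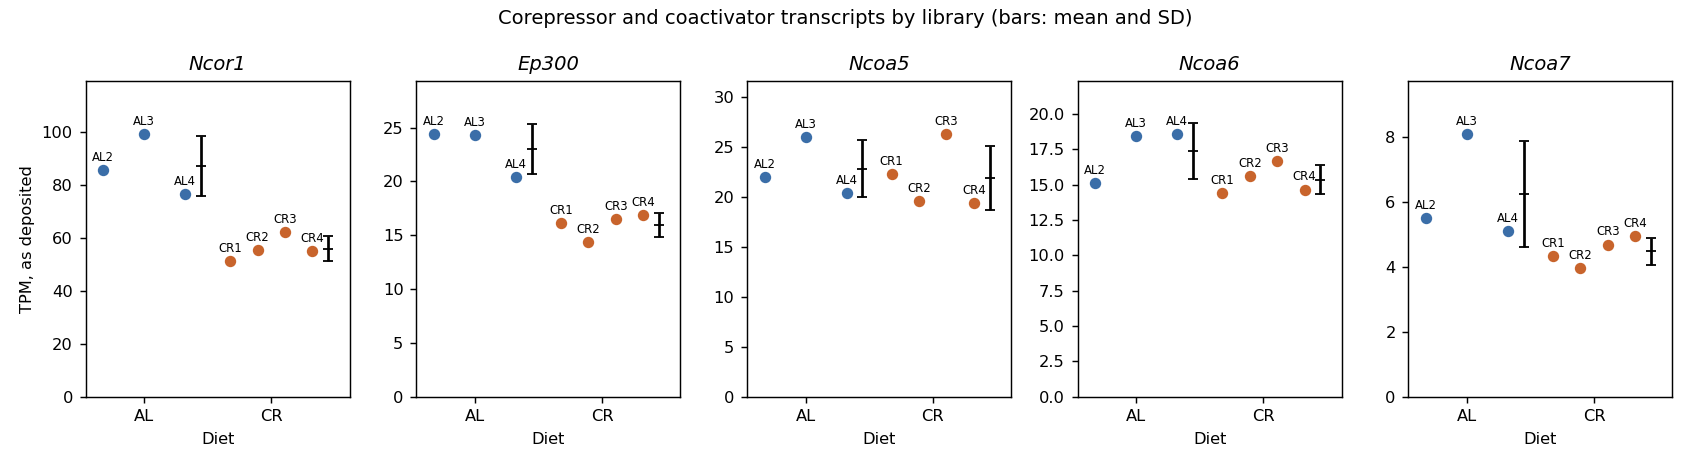
TPM as deposited (vertical axis, each panel on its own scale from 0) of the 5 genes in each AL (blue) and CR (orange) library, with the mean and SD of each diet as a bar. All 4 CR libraries lie below all 3 AL libraries for Ncor1, Ep300 and Ncoa7, while the diets overlap for Ncoa5 and Ncoa6.

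Ncoa5 encodes a small coregulator that binds oestrogen receptors and can act as a coactivator or a corepressor. Its gene spans chr2:165000357-165034867 on the minus strand. It stood at 22.0, 26.0 and 20.4 TPM in AL2, AL3 and AL4, and at 22.3, 19.6, 26.3 and 19.4 TPM in CR1 to CR4. The diets overlapped, and the highest value of each diet was close to the other's. The difference was -0.06 ± 0.13 (SE) as deposited and 0.15 ± 0.11 after scaling, with a 95% confidence interval of -0.11 to 0.41 on the scaled values, so its sign depends on the scale. Ncoa6 encodes the scaffold of ASCOM and lies at chr2:155390656-155473894, on the minus strand of the same chromosome. It stood at 15.1, 18.4 and 18.6 TPM in AL2, AL3 and AL4, and at 14.4, 15.6, 16.7 and 14.7 TPM in CR1 to CR4. The ranges overlapped through AL2, the lowest AL library. The difference was -0.17 ± 0.10 (SE) as deposited and 0.04 ± 0.09 after scaling, again with a change of sign. The 95% confidence interval for Ncoa6 was -0.39 to 0.06 as deposited and -0.17 to 0.25 after scaling. In the authors' deposited table the FDR was 0.438 for Ncoa5 and 0.817 for Ncoa6.

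**Figure D2:**
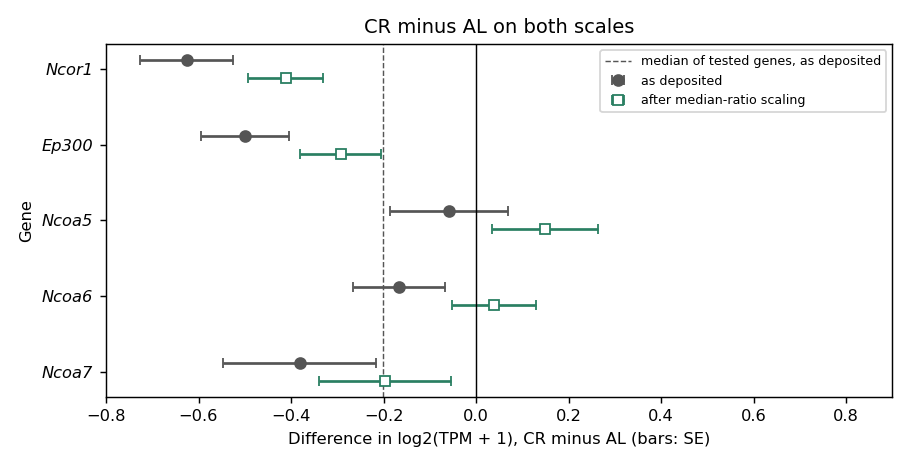
Difference in log2(TPM + 1), CR minus AL (horizontal axis), of each gene as deposited (filled circles) and after median-ratio scaling (open squares), with SE bars; the dashed line marks the median of tested genes as deposited, -0.20. Ncor1 and Ep300 lie below 0 on both scales, and Ncoa5 and Ncoa6 lie on different sides of 0 on the 2 scales.

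As a background for these differences, 17.6% of the tested genes were called lower in CR on the deposited scale (limma on log2(TPM + 1), adjusted p under 0.05) and 0.546% higher. After scaling, limma called 0 lower and 5 (0.0506%) higher, while 13.2% were lower and 15.8% higher at an unadjusted p under 0.05. Groups did not overlap, with CR lower, for 3 of the 5 genes as deposited and for 31.1% of the tested genes, against 2.17% with CR higher. After scaling this held for 2 of the 5, Ncor1 and Ep300, and for 12.7% of the tested genes. The 5 genes were chosen on this comparison, so nothing is read from these counts.

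The 5 transcripts spanned a wide range of levels. Over the 7 libraries the mean level was 69.3 TPM for Ncor1, 22.3 TPM for Ncoa5, 19.0 TPM for Ep300, 16.2 TPM for Ncoa6 and 5.24 TPM for Ncoa7. Ncor1 stood above Ncoa5 in 7 of 7 libraries, 3.05-fold on average (two-sided exact sign-flip permutation test, adjusted p = 0.0313 over 4 neighbouring pairs, from the smallest p that 7 libraries allow, 0.0156). Ncoa6 stood 3.16-fold above Ncoa7, also in 7 of 7 (exact permutation test, adjusted p = 0.0313). The 3 genes in the middle were not separated by this test over 7 libraries. Ncoa5 was above Ep300 in 6 of 7 libraries, 1.19-fold (exact permutation test, adjusted p = 0.0781), and Ep300 above Ncoa6 in 5 of 7, 1.16-fold (exact permutation test, adjusted p = 0.0781). Without AL2 the first of these pairs passed the test (exact permutation test, adjusted p = 0.0417). Within AL alone the mean log2 ratio of Ncoa5 to Ep300 was -0.02, and within CR alone it was 0.45. A mean of at least 5.24 TPM put each gene above 33.7% of tested genes or more, and Ncor1 above 89.1%.

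A ratio of genes within a library is free of any scaling. The TPM ratio of Ncor1 to Hdac3, the deacetylase it recruits, was 1.23, 1.62 and 1.15 in AL2, AL3 and AL4. In CR1 to CR4 it was 0.870, 0.970, 1.06 and 0.959, below each AL library. The mean ratio was 1.34 ± 0.253 across AL libraries (SD, n = 3) against 0.964 ± 0.0764 under restriction (SD, n = 4). Relative to Ncoa5 the ratio of Ncor1 was 3.75 to 3.89 in AL, a narrow range, and 2.30 to 2.83 in CR, where it spread more widely. The ratio of Ep300 to Ncoa5 was 1.11, 0.937 and 0.9982 in AL2, AL3 and AL4, and 0.725, 0.734, 0.627 and 0.870 in CR1 to CR4. Ncor1 and Ep300 kept a similar proportion to each other, 3.78 ± 0.290 across AL libraries (SD, n = 3) against 3.51 ± 0.345 under restriction (SD, n = 4), and there the diets overlapped.

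**Figure D3:**
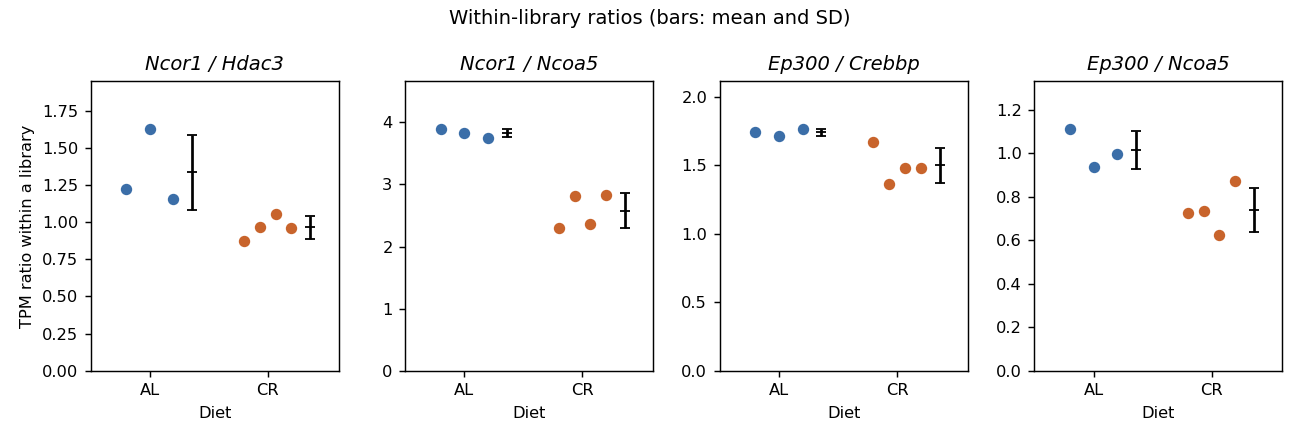
TPM ratio within a library (vertical axis from 0) for Ncor1 over Hdac3, Ncor1 over Ncoa5, Ep300 over Crebbp and Ep300 over Ncoa5, in AL (blue) and CR (orange), with mean and SD bars. In each panel every CR library lies below every AL library; the gap is narrowest for Ep300 over Crebbp, where the highest CR ratio is 1.67 and the lowest AL ratio 1.71.

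Crebbp, the paralogue of Ep300 that encodes CBP, stood at 13.3 ± 1.47 TPM across AL libraries (SD, n = 3) against 10.7 ± 0.769 TPM under restriction (SD, n = 4). Its difference was -0.28 ± 0.11 as deposited (limma, adjusted p = 0.0961) and -0.08 ± 0.09 after scaling (limma, adjusted p = 0.577). The ratio of Ep300 to Crebbp was 1.74 ± 0.0261 across AL libraries (SD, n = 3) against 1.499 ± 0.129 under restriction (SD, n = 4).

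Ncoa7 encodes a receptor coactivator of the long form and, from an internal start, a short form known in human cells to be induced by interferon. Its gene spans chr10:30628999-30803326 on the minus strand, and the table gives 1 value per gene, so the forms were not separated here. It stood at 5.52, 8.10 and 5.10 TPM in AL2, AL3 and AL4, and at 4.32, 3.98, 4.69 and 4.94 TPM in CR1 to CR4. AL3 stood well above the other libraries, and AL4 lay only just above CR4. The difference was -0.38 ± 0.16 (SE) as deposited and -0.20 ± 0.14 after scaling, where the diets overlapped. Without AL3 the values were -0.20 and -0.06. The deposited FDR of Ncoa7 in the authors' deposited table was 0.394.

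Of 30 interferon-stimulated genes listed, 3 had a row, and those described here, Rsad2 and Igtp, were highest in the same library. The antiviral gene Rsad2 stood at 50.6 TPM in AL3 and at 12.4 to 20.1 TPM in the other libraries. Igtp, an interferon-induced GTPase, stood at 133 TPM in AL3 and at 35.6 to 68.9 TPM elsewhere. Neither passed the limma test between diets, with adjusted p of 0.428 and 0.3502 as deposited. The part of interferon signalling in the level of Ncoa7 was not tested.

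**Figure D4:**
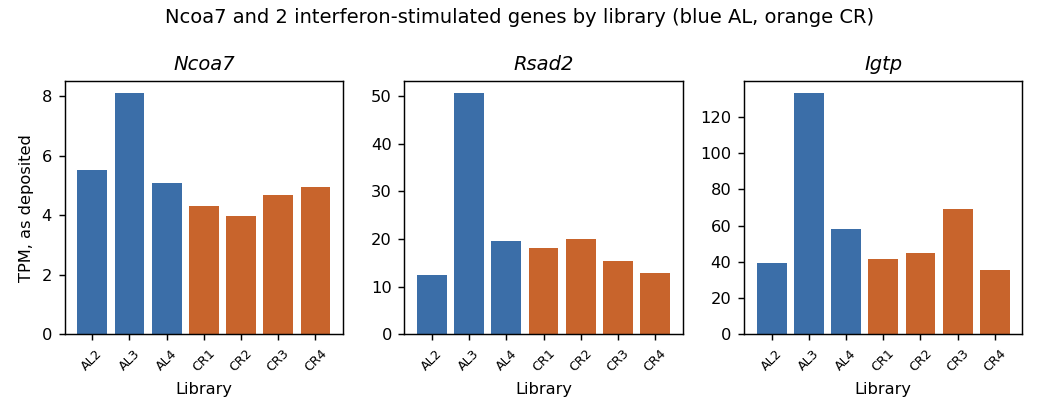
TPM as deposited (vertical axes from 0) of Ncoa7, Rsad2 and Igtp in each library, AL in blue and CR in orange. AL3 is the highest library in all 3 panels, with 8.10 TPM for Ncoa7 and 50.6 TPM for Rsad2.

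An internal start of Ncoa7 is shown because its window holds the letters of an interferon-stimulated response element (ISRE), GAAA, any 2 bases and GAAA, in capitals; which form starts there is not annotated in the table used. RefSeq promoter windows (GRCm38.p6, 250 bases before a start to 50 after) were matched for 5 of 5 genes, 7 windows in all. The Ncoa7 stretch below is chr10:30655851-30656117, minus strand, 5′ to 3′, and starts 250 bases before an internal start that lies 147459 bases into the gene.
Ncoa7 internal start: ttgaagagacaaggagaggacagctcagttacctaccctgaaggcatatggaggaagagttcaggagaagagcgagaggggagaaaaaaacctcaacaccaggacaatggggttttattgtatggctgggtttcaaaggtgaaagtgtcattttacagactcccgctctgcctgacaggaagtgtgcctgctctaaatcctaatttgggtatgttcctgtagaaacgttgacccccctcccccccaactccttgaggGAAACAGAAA
The match begins at base 8 counted from the start. On either strand these letters occur in 3.44% of the 32851 promoter windows, and in 1 of the 7 windows of these genes. The other Ncoa7 window, at the 5′ end of the gene, had 63.3% GC and none of the motifs searched.

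Ncor1 was the other gene with matches, in the window of its CpG-rich start 1209 bases into the gene. That window had 72.3% GC and 36 CpG dinucleotides, against a median of 52.7% and 7 over all windows. Stretches of 30 bases are shown around the ETS letters CCGGAAG and the YY1 letters (AA, any base, ATGGCG, any base, C), in capitals, at chr11:62457367-62457396 and chr11:62457287-62457316, both on the minus strand.
Ncor1 ETS match: tccccaaccctCCGGAAGgaggaggagccc
Ncor1 YY1 match: ggttgaggcAAGATGGCGGCtaaggtggcg
The ETS letters occur in 8.86% of all windows and the YY1 letters in 1.51%. The first lies upstream of the RefSeq start, and the second lies in an exon. Ep300 and Ncoa5 also had GC-rich windows, at 72.3% and 71.7% GC with 30 and 36 CpG dinucleotides, whereas the Ncoa6 window, at an internal start, had 39.3% GC and 1 CpG. The search also covered the E-box CACGTG (7.15% of windows), the NRF1 letters (GCGCA, any base, GCGC; 4.60%) and the nuclear receptor letters AGGTCA repeated after any 1 base (0.0396%), and none of these was in the 7 windows. The motifs were chosen after the windows were seen, and a match is only a description of the letters.

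The reads behind the values were recovered from the steps of the TPM values and came out whole for these genes. Ncor1 rested on 2103 to 5430 reads per library, Ep300 on 720 to 1609, Ncoa6 on 427 to 1003, Ncoa5 on 254 to 495 and Ncoa7 on 156 to 298. Counting error alone was thus 1.36% to 2.18% of the level for Ncor1 and 5.79% to 8.01% for Ncoa7. The spread between libraries after scaling, as a coefficient of variation, was 8.75% in AL and 6.94% in CR for Ncor1. For Ncoa7 it was 20.6% in AL and 8.35% in CR, so that only its AL spread lay well above counting error. Ncoa5 showed the opposite order, with 7.75% in AL and 14.2% in CR.

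Ncor1 and Ep300 are also the longest of the 5 transcripts in summed exon length, at 12811 and 14273 bases in GENCODE M21. Among 396 tested protein-coding genes of at least 12000 bases, the median relative change was -0.08, and groups did not overlap with CR lower for 22.7%. Among 979 genes under 2000 bases the median was 0.00 and that share 9.70%. Over all 7164 tested protein-coding genes with a length, the median was -0.02 and that share 15.3%. The Spearman correlation of exon length with relative change over these genes was -0.056. The part of exon length in the difference of Ncor1 and Ep300 was not tested. Ncor1 shares 82 exon bases with Pigl on the opposite strand. Pigl stood at 21.6, 30.8 and 19.5 TPM in AL2, AL3 and AL4, and at 15.6, 15.7, 18.9 and 16.1 TPM in CR1 to CR4, also without overlap, and the ratio of Ncor1 to Pigl overlapped between the diets. The strand setting of the counting is not given in the sources used here, and Ncoa7 shares 78 exon bases with Hint3 on its own strand.

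Around the scaffold Ncor1, the partner genes of the NCoR complex lay on both sides of 0 after scaling. Of 8 partners listed, 7 were tested and 2 fell as deposited, against 17.6% of all tested genes; their median relative change was 0.04, against -0.01 for all tested genes. Gps2, a core subunit that restrains inflammatory genes in fat, fell from 67.5 ± 5.89 TPM across AL libraries (SD, n = 3) to 48.9 ± 3.22 TPM under restriction (SD, n = 4), with limma adjusted p = 0.0148 as deposited and 0.0942 after scaling. Kdm4a, a histone demethylase that binds NCoR, fell from 36.2 ± 2.53 to 27.3 ± 1.72 TPM (limma, adjusted p = 0.0179 as deposited and 0.123 after scaling). Hdac3 averaged 65.8 ± 4.35 against 58.1 ± 1.10 TPM, with 0.04 ± 0.08 for its relative change. Tbl1x and Tbl1xr1, the exchange subunits of the complex, had relative changes of 0.04 ± 0.09 and 0.05 ± 0.09.

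Of 28 other corepressors listed, 20 were tested and 6 fell as deposited, against 17.6% of all tested genes, and 0 rose. Their median relative change was 0.01, against -0.01 for all. They included Ctbp2, a corepressor that senses NADH, with a relative change of -0.37 ± 0.10, and the histone demethylase gene Kdm1a, with -0.15 ± 0.07. They also included Bcorl1, with -0.38 ± 0.13, and the deacetylase gene Hdac5, with -0.12 ± 0.08. The limma adjusted p of these 4 lay between 0.0175 and 0.0232 as deposited and between 0.0789 and 0.374 after scaling. After scaling, groups did not overlap for 4 members with CR lower and 3 with CR higher, against 12.7% and 13.9% of all tested genes.

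Of 11 histone acetyltransferase genes listed other than Ep300, 9 were tested. Of these 9, 2 fell as deposited and 0 rose, a count near the 17.6% of all tested genes. Their median relative change was -0.04, against -0.01 for all. Kat6a fell from 30.3 ± 2.06 to 20.9 ± 1.67 TPM, a relative change of -0.31 ± 0.07, close to that of Ep300 (limma, adjusted p = 0.0137 as deposited and 0.0753 after scaling). Kat7 fell from 34.0 ± 1.83 to 28.5 ± 1.31 TPM as deposited (limma, adjusted p = 0.0438), with a relative change of -0.04 ± 0.06. After scaling, 4 of the 9 lay above 0 and 5 below. Kat8 lay above, at 21.4 ± 0.902 against 24.2 ± 2.59 TPM, a relative change of 0.38 ± 0.09 (limma, adjusted p = 0.228 as deposited and 0.0744 after scaling).

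Of 10 listed members of ASCOM, the methyltransferase complex that NCOA6 joins, 8 were tested. Of these 8, 3 fell as deposited, against 17.6% of all tested genes. Their median relative change was -0.08 over the 8, against -0.01 for all. The methyltransferase gene Kmt2c fell from 16.2 ± 1.90 to 11.1 ± 1.05 TPM, with a relative change of -0.31 ± 0.10. The demethylase gene Kdm6a fell from 9.84 ± 1.01 to 6.96 ± 0.318 TPM (-0.25 ± 0.10 relative), and Paxip1 from 8.43 ± 0.586 to 6.15 ± 0.352 TPM (-0.21 ± 0.10 relative). Their limma adjusted p was 0.0221, 0.0267 and 0.0338 as deposited and 0.110, 0.145 and 0.192 after scaling.

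Of 39 other coactivators listed, 28 were tested. Of these 28, 6 fell and 0 rose as deposited, again near the 17.6% of all tested genes. Their median relative change was 0.04, against -0.01 for all. Calcoco1, a coactivator and autophagy receptor gene, fell from 57.1 ± 3.11 to 39.5 ± 1.42 TPM, and Arid1a, of the SWI/SNF remodelling complex, from 28.5 ± 2.31 to 19.5 ± 1.16 TPM. Smarca2, an ATPase of that complex, fell from 57.0 ± 6.12 to 41.1 ± 1.23 TPM, and Trrap, a scaffold of acetyltransferase complexes, from 13.9 ± 2.15 to 9.34 ± 0.476 TPM. The relative changes of these 4 lay between -0.32 and -0.25, and limma adjusted p between 0.0111 and 0.0212 as deposited and between 0.0717 and 0.128 after scaling. Of the 28, 15 had relative changes above 0 and 13 below. Smarca4, the other ATPase gene of the complex, stood at 56.8 ± 4.76 against 59.3 ± 1.70 TPM. Its relative change was 0.28 ± 0.06 (limma, adjusted p = 0.557 as deposited and 0.0717 after scaling). After scaling, groups did not overlap for 6 members with CR lower and 6 with CR higher, where the shares over all tested genes were 12.7% and 13.9%.

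Of 46 listed receptors that these cofactors bind, 30 had a row and 18 were tested. Of these 18, 6 fell as deposited, against 17.6% of all tested genes. Their median relative change was -0.07, against -0.01 for all. The glucocorticoid receptor gene Nr3c1 fell from 114 ± 10.7 to 78.8 ± 6.28 TPM, a relative change of -0.31 ± 0.10, and the retinoic acid receptor gene Rarg from 40.9 ± 4.22 to 27.7 ± 2.34 TPM (-0.33 ± 0.09). The thyroid hormone receptor gene Thra and the shared partner gene Rxra had relative changes of -0.12 ± 0.07 and -0.15 ± 0.10, called as deposited (limma, adjusted p = 0.0143 and 0.0240). After scaling none of these 4 was called (limma, adjusted p between 0.0821 and 0.357). PPARγ target genes had 7 of 25 members tested, of which 1 fell as deposited, against 17.6% of all tested genes. This was Plin1, which coats the lipid droplet, with a relative change of -0.14 ± 0.10. Of the 7, Ucp1 (1.56 ± 0.57) and Cidec (0.22 ± 0.12) had relative changes above 0, and 5 lay below. Ucp1 stood at 6.20, 0.401 and 0.663 TPM in AL2, AL3 and AL4, and at 2.79 to 8.51 TPM in CR. Its diets overlapped, and it was not called (limma, adjusted p = 0.114 as deposited and 0.127 after scaling). The median relative change of the list was -0.05, against -0.01 for all tested genes.

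**Figure D5:**
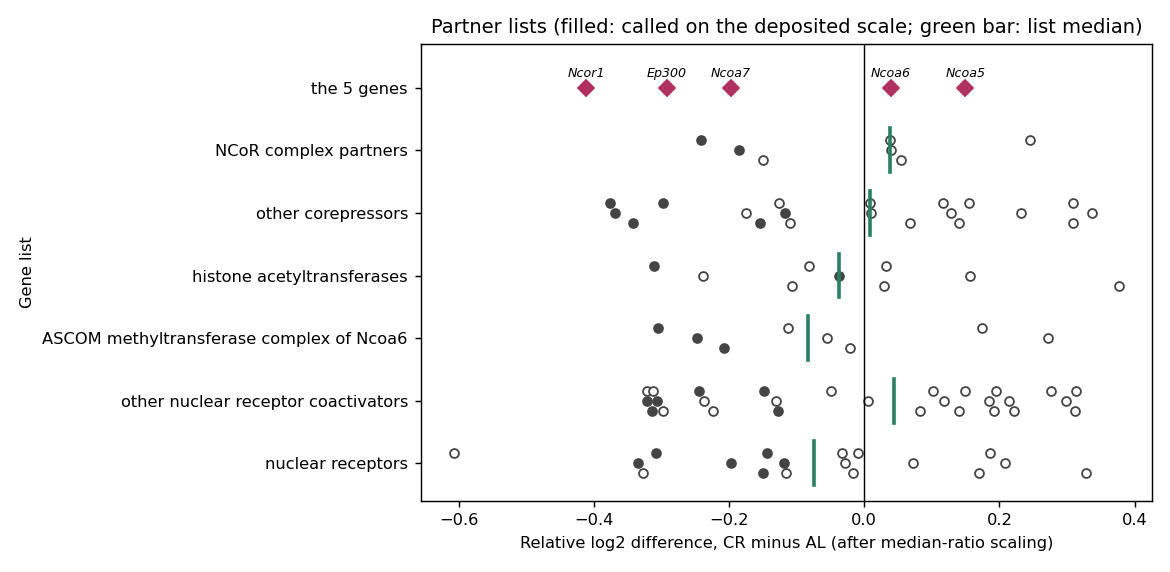
Relative log2 difference, CR minus AL after median-ratio scaling (horizontal axis), of the 5 genes (diamonds) and of the tested genes in 6 partner lists (circles, filled where called as deposited), with each list's median as a green bar. The list medians lie between -0.08 and 0.04, and members lie on both sides of 0 in each list.

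Across the lists of partners, targets and interferon genes, 26 of 100 tested genes were called as deposited, all of them lower in CR, against 18.2% of all tested genes. After scaling limma called 0 of them, with 30 at an unadjusted p under 0.05, against 29.0% of all tested genes. Leaving out AL3, CR1 or CR2 took the 26 to 11, 12 and 11.

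Genes with the most similar course over the 7 libraries were found by the root mean square distance between profiles of scaled log2(TPM + 1), each centred on its own mean. The median distance of all candidates was 0.277 for Ncor1 and 0.239 for Ep300. Nearest to Ncor1 were Mfsd1, a lysosomal membrane transporter gene, at a distance of 0.0510, Ankrd13b at 0.0586 and Bcl2l12 at 0.0593. Mfsd1 stood at 96.2 ± 7.76 TPM across AL libraries (SD, n = 3) against 64.1 ± 5.21 TPM under restriction (SD, n = 4). Nearest to Ep300 were Chm, a gene for Rab prenylation, at 0.0346, the stress kinase gene Mapk8 at 0.0386 and Phf10, of a SWI/SNF complex, at 0.0396. Ncoa5 lay nearest to Dvl2, Skiv2l2 and Nol9, at 0.0351 to 0.0561. Ncoa6 lay nearest to Extl3, Tfip11 and the fatty acid transporter gene Cd36, at 0.0421 to 0.0434. Ncoa7 lay nearest to Fnbp4, Hnrnph1 and Man2a1, at 0.0342 to 0.0496, and these had AL standard deviations of 4.44, 25.1 and 14.6 TPM against 0.8289, 6.62 and 3.39 TPM in CR, the same order as in Ncoa7. These lists rank genes on the same libraries and describe only their course.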

How the data were processed

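The authors deposited TPM values for each gene in 7 libraries, beside a column of FDR-adjusted p-values. Per the submitters' processing notes, FastQC 0.12.1, STAR 2.7.10b, SAMtools 1.17, featureCounts 2.0.3, edgeR 3.38.4 and the build GRCm39 were named, without their roles. Which annotation, strand setting and FDR test were used is not given in the sources used here. Per the labels' protocols, the directional libraries were made from RNA for which both ribosomal RNA depletion and poly-A selection are named. Columns were assigned to diets by name, and 0 value columns were left without a group.

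The 9883 genes that reached 1 TPM in 4 or more libraries were fitted with limma 3.58.1 in R 4.3.3 on log2(TPM + 1), with diet as the only term and trended variances, two-sided, with Benjamini-Hochberg adjustment over all tested genes. The added 1 TPM understates changes of low genes. All 5 genes passed the filter. Standard errors and confidence intervals are limma's. Recovered reads are TPM times GENCODE M21 exon length divided by the value of 1 read; of 22041 rows judged, 94.55% gave whole reads (tolerance 0.05) throughout, and depth was 4147828 to 8897778 reads in rows with a length. GENCODE M21 and RefSeq coordinates are GRCm38 and were not compared with the deposited build. Python 3.11.15, scipy 1.17.1 and matplotlib 3.10.9 served for permutation tests and plots. The fit was tested on simulated data.

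Members and lists were chosen with earlier results of these data known. Named genes were the 5 members, Hdac3, Crebbp and up to 4 called members of each list by adjusted p (or 2 by level). Also named were the 3 nearest profiles to each member among genes with a full symbol. Pigl, for its overlap, and Tbl1x, Tbl1xr1, Myh1, Cfd, Cidec, Pparg, Kdr, Emcn, Eng, Kat8, Smarca4 and Ucp1 were added after their values were seen. The same holds for the motifs searched. Some genes that the rule names are not reported here. Alternatives covered pseudocounts of 0.1 and 5, filters, scaling, quantile normalization, no variance trend, a replicate block and leaving out each library.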

Additional observations from a re-analysis of the deposited data

How the results depend on the processing

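The count of 1796 called genes became 742 without the filter, 5 after median-ratio scaling, 5 after quantile normalization and 661 to 1511 with 1 library left out (661, 767, 680, 1047 and 1157 without AL3, CR1, CR2, CR3 and CR4). The 26 called list members became 12, 0, 0 and 11 to 24 in the same order. With the column number as a replicate block, limma called 0 genes and 0 list members, with 2682 and 34 at an unadjusted p under 0.05. The numbers do not match the mice of the labels. Deviations correlated at -0.03, -0.01 and -0.10 for same-numbered libraries and from -0.06 to 0.09 for the other pairs. Whether same-numbered libraries share a batch was not tested. The differences of Ncor1, Ep300, Ncoa5 and Ncoa6 moved to -0.41, -0.29, 0.15 and 0.039 after median-ratio scaling. After quantile normalization those 4 and Ncoa7 were -0.46, -0.31, 0.13, 0.032 and -0.16. With 1 library left out, the deposited difference ranged from -0.71 to -0.53 for Ncor1, from -0.58 to -0.45 for Ep300 and from -0.49 to -0.20 for Ncoa7. That of Ncoa5 ranged from -0.15 to 0.03, above 0 only without AL3. The relative change, recomputed after seeing the data with each library left out, ranged from -0.48 to -0.35 for Ncor1 and from -0.35 to -0.23 for Ep300; that of Ncoa6 was -0.03 without AL2. For the order of levels, leaving out 1 library gave mean log2 ratios of 1.55 to 1.67 for Ncor1 over Ncoa5, 0.18 to 0.31 for Ncoa5 over Ep300 and 1.61 to 1.74 for Ncoa6 over Ncoa7. With 6 libraries the adjusted p of the first and last pair rose to 0.0625, or 0.0417 without AL2, because fewer sign flips are possible. Without AL2 the log2 ratio of Ncoa5 over Ep300, 0.31, passed the threshold (exact permutation test, adjusted p = 0.0417). The mean log2 ratio of Ncor1 over Ncoa5 was 1.93 in AL alone and 1.36 in CR alone. At this depth counting error alone reached 8.01% of the level of Ncoa7, the gene with the fewest reads.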
